A study of Mus musculus with 18 samples.

Results

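*H19* and the imprinted growth genes *Igf2r*, *Grb10*, *Cdkn1c*, *Igf2*, *Mest*, *Peg3*, *Peg10*, *Plagl1* and *Impact* were followed in RNA-seq of mouse embryonic stem cells (mESCs). These 10 genes were taken by symbol from the deposited expression table of 24369 genes, as imprinted genes that lie outside the imprinted cluster of chromosome 12. All 10 were listed and all 10 passed the filter on low counts in both experiments. The cells are E14 mESCs of the genotype Rex1GFPd2-Cas9, so the wild-type cells too carry Cas9, placed at *Rosa26*, and a destabilised GFP under the control of *Rex1* (listed as *Zfp42*), a gene of naive pluripotency. The first experiment is a time course of these cells before differentiation (day 0) and on days 1, 2 and 3 of it, with 3 libraries per day, and the medium of the day 0 cells is not given in the sources used here. The second holds cells sorted as GFP+, with 2 libraries each of wild-type, *Nprl2* KO (Nprl2-/-) and *Tsc2* KO (Tsc2-/-) cells. *Nprl2* codes for a subunit of Gator1 and *Tsc2* for a subunit of the Tsc complex, and both complexes restrain the growth kinase mTORC1. The sorted cells were grown on mouse embryonic fibroblast feeders in serum + LIF (SL), and KO clones were made by deleting an exon with paired guides. The labels do not say whether the libraries of a group are separate clones or cultures, so p-values measure only the spread between these libraries, which may be technical.

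Imprinted genes are expressed mainly from the copy inherited from either the mother or the father, and many of them set fetal and placental growth. *H19*, *Igf2r*, *Grb10* and *Cdkn1c* are in mouse expressed mainly from the maternal copy and most are known as brakes on growth, whereas *Igf2*, *Mest*, *Peg3*, *Peg10*, *Plagl1* and *Impact* are expressed mainly from the paternal copy. *H19* and *Igf2* are neighbours that share enhancers, and the factor CTCF bound to the unmethylated maternal control region between them directs the enhancers to *H19*. In mESCs, DNA methylation at such control regions is protected by the zinc finger protein Zfp57. The libraries were not split by parental copy, so the values below are sums over both copies.

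*H19* makes no protein, and an exon of it holds the hairpin of miR-675, whose arms are shown because *H19* is the member with the widest range over the genotypes. Capitals mark the seed, bases 2 to 8, in the RefSeq sequences, which lie on the minus strand of GRCm38.p6 at chr7:142577112-142577133 (5p) and chr7:142577078-142577099 (3p). The arms have different seeds, and neither was measured here, since the libraries count long transcripts.
miR-675-5p: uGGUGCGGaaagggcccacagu
miR-675-3p: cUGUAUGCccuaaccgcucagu

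The start of *Mest* is shown because *Mest* was lower in both KOs under every alternative run. Of its 3 transcripts, NM_008590.2 held between 80.4% and 94.2% of the *Mest* TPM in the 7 groups. The 250 bases before a start of *Mest*, chr6:30737800-30738049 on the plus strand of GRCm38.p6, are printed with copies of TGCCGC, the short motif of Zfp57, in capitals. Windows were taken by gene symbol and were not matched to a transcript. Both strands were searched, so a copy on the minus strand reads GCGGCA.
Mest: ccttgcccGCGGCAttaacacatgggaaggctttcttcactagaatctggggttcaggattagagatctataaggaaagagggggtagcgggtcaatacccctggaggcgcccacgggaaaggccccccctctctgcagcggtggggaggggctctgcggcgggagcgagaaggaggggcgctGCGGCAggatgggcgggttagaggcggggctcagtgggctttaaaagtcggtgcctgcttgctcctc
The window holds 2 copies, as does an overlapping *Mest* window, chr6:30737803-30738049. Of all 32851 RefSeq windows of this length, 8.7% held the motif and 0.874% held 2 or more copies. The window of *Plagl1* held 1 copy in its 250 bases, and 0 in the 109 of them that come before an annotated *Plagl1* exon begins. The windows of *Peg3*, *Igf2*, *Igf2r* and *Grb10* and of an earlier start of *Mest* held none. A match is a description of letters and not a bound site, and a window without one says nothing of Zfp57.

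The members are spread over 6 chromosomes in RefSeq GRCm38.p6. *H19* (chr7:142575530-142578146), *Igf2* (chr7:142650768-142666816), *Cdkn1c* (chr7:143458339-143461059) and *Peg3* (chr7:6703892-6730462) lie on chromosome 7, and *Peg10* (chr6:4747306-4760517) and *Mest* (chr6:30733506-30748466) on chromosome 6. *Plagl1* lies at chr10:13090832-13131694, *Grb10* at chr11:11930499-12037428 and *Igf2r* at chr17:12682406-12769706, and *Impact* on chromosome 18.

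Levels are given as TPM, a library's share of transcripts corrected for transcript length and scaled to a fixed total, and differences as log2 fold changes (± SE) of edgeR's quasi-likelihood test on the estimated counts. A gene is called where its Benjamini-Hochberg adjusted p is below 0.05 over all genes tested, 14382 in the time course and 13725 in GFP+ cells. Totals of estimated counts lay between 12503005 and 15305054 per library in the time course and between 8610357 and 13780861 in GFP+ cells. The targeted genes fell in their own KO, by 0.96 ± 0.18 on the log2 scale for *Nprl2* (adjusted p = 0.00888) and by 1.23 ± 0.08 for *Tsc2* (adjusted p = 9.73e-07). *Zfp42* fell by 6.01 ± 0.11 between day 0 and day 3. All 10 stem cell markers reached 1 TPM or more in every library, with a summed level of 8880 to 9125 TPM at day 0 and 1992 to 2432 TPM at day 3, while 4 formative epiblast markers went from 103 to 130 TPM at day 0 to 1197 to 1293 TPM on day 1.

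Per transcript length, the members cover a wide span. At day 0 the highest mean level was that of *Impact* (186 ± 16.4 TPM, SD, n = 3), followed by *Mest* (93.1 ± 1.59 TPM), and the lowest were those of *Igf2* (3.50 ± 2.30 TPM) and *H19* (1.94 ± 0.722 TPM). In wild-type GFP+ cells *Impact* (246 ± 44.6 TPM, n = 2) and *Peg10* (220 ± 4.81 TPM) stood highest and *Plagl1* (5.86 ± 0.504 TPM) lowest. The sorted libraries were made apart from the time course, and the experiments are only set side by side.

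The time course asks which genes change as mESCs leave naive pluripotency. Between day 0 and day 1, 8 of the 10 members changed, 6 higher (*H19*, *Cdkn1c*, *Mest*, *Peg3*, *Peg10*, *Impact*) and 2 lower (*Igf2r*, *Plagl1*). Of all genes tested, 60.9% were called at this step, 30.1% higher and 30.8% lower. The median absolute log2 fold change was 1.12 over the members and 0.40 over all genes tested. The members were chosen with earlier results of these data known, so such medians are a description only. Between day 1 and day 2, 7 members changed, 3 higher (*Grb10*, *Igf2r*, *Plagl1*) and 4 lower (*Cdkn1c*, *Mest*, *Peg3*, *Peg10*), against 62.1% of all genes (32.5% higher, 29.6% lower). From day 2 to day 3 only *Plagl1* was called, higher and at the edge of the threshold, against 31.5% of all genes (15.9% higher, 15.6% lower), and the median absolute change of the members was 0.08, against 0.21 over all genes tested. From day 0 to day 3, 8 members differed, 7 higher and *Plagl1* lower, against 70.9% of all genes (35.0% higher, 35.9% lower). In bulk RNA, fewer cells with a transcript and less of it per cell cannot be told apart.

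**Figure D1:**
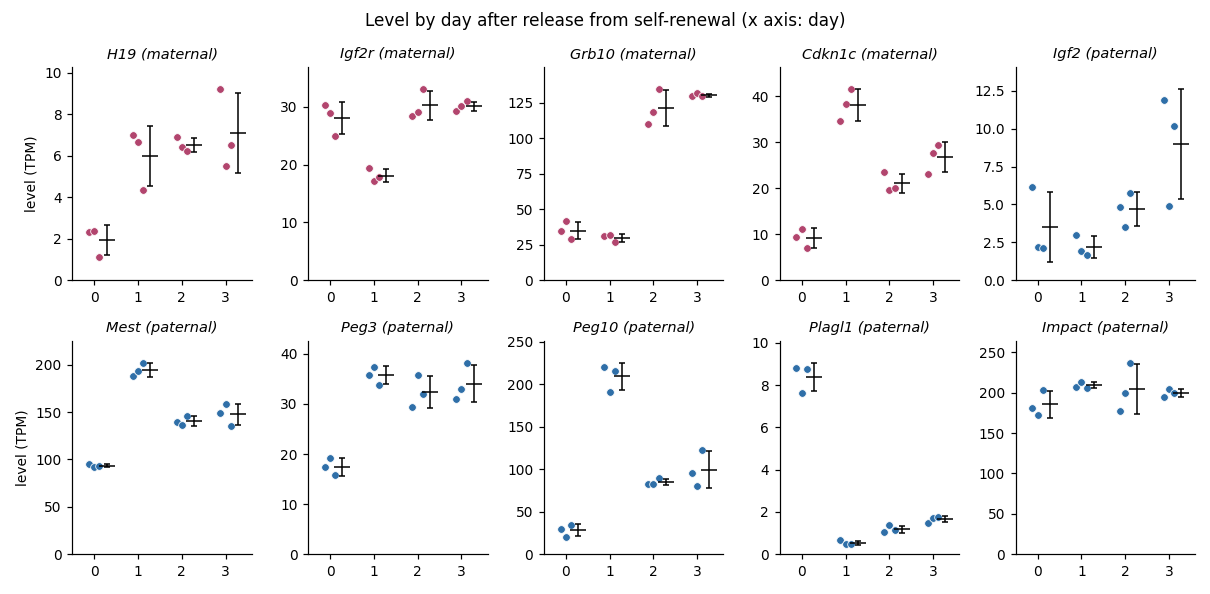
Level in TPM (y axis) of the 10 members on days 0 to 3 (x axis). Points are libraries, 3 per day, in red for genes expressed mainly from the maternal copy and blue for the paternal copy, and the black bar beside them is the mean ± SD. *Peg10*, *Cdkn1c* and *Mest* peak on day 1, *Grb10* steps up on day 2, and *Plagl1* falls from 7.61 to 8.78 TPM at day 0 to below 1 TPM on day 1.

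Among the maternally expressed members, *H19* was at 2.34, 2.38 and 1.11 TPM in the day 0 libraries and at 6.99, 6.66 and 4.35 TPM on day 1. It then stayed at 6.92, 6.43 and 6.22 TPM on day 2 and at 9.23, 5.50 and 6.50 TPM on day 3. All day 0 libraries lie below all later ones, and days 1, 2 and 3 overlap. *H19* rose by 1.69 ± 0.27 on the log2 scale from day 0 to day 1 (3.23-fold, adjusted p = 3.37e-05), and differed by 0.0001 ± 0.24 from day 1 to day 2. These levels rest on few reads, 17 to 43 per day 0 library and 66 to 155 per later one.

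*Cdkn1c* codes for p57, an inhibitor of cyclin-dependent kinases. It was at 9.33, 11.2 and 7.06 TPM at day 0, and at 34.6, 38.4 and 41.5 TPM on day 1. It then stood at 23.5, 19.7 and 20.01 TPM on day 2 and at 23.2, 27.7 and 29.4 TPM on day 3. Day 1 was the highest in all 3 libraries and day 0 the lowest. The rise to day 1 was 2.12 ± 0.13 (adjusted p = 1.70e-10), the fall to day 2 was 0.97 ± 0.12 (fell by 0.97 on the log2 scale, adjusted p = 2.07e-06), and day 3 remained above day 0 by 1.45 ± 0.14 (adjusted p = 2.35e-08).

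*Grb10*, an adaptor that binds the insulin and IGF receptors and damps their signal, moved a day later than these. It was at 34.4, 41.4 and 29.3 TPM at day 0, at 31.0, 31.9 and 26.7 TPM on day 1, and at 110, 119 and 135 TPM on day 2. On day 3 it was at 129, 132 and 130.0 TPM. Days 0 and 1 overlap, days 2 and 3 overlap, and the pairs of days lie apart. *Grb10* rose by 1.90 ± 0.11 from day 1 to day 2 (3.74-fold, adjusted p = 7.81e-10). The transcript NM_010345.4 held at least 93.7% of its TPM in every group.

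*Igf2r*, the receptor that takes Igf2 into the cell for breakdown, dipped on day 1 only. It was at 30.4, 29.0 and 24.9 TPM at day 0, at 19.4, 17.2 and 17.8 TPM on day 1, at 28.5, 29.1 and 33.1 TPM on day 2, and at 29.2, 30.1 and 30.9 TPM on day 3. The day 1 libraries lie below all the others, which overlap. It fell by 0.56 ± 0.07 (adjusted p = 1.71e-06) and then rose by 0.62 ± 0.07 (adjusted p = 4.79e-07). The antisense RNA *Airn* runs across part of *Igf2r*, and whether strand was used in the counting is not given in the sources used here.

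Among the paternally expressed members, *Peg10*, a gene of retrotransposon origin that is needed for the placenta, made the largest step up. It was at 30.2, 20.6 and 33.7 TPM at day 0 and at 221, 190 and 216 TPM on day 1. It then stood at 82.6, 82.8 and 89.3 TPM on day 2 and at 95.3, 79.7 and 123 TPM on day 3. Day 0 was lowest and day 1 highest in every library, and days 2 and 3 overlap. The rise to day 1 was 2.96 ± 0.19 (7.81-fold, adjusted p = 6.49e-07), and the level then fell by 1.41 ± 0.18 (adjusted p = 9.26e-05).

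*Mest*, which codes for a protein of the hydrolase fold family, followed the same course at a smaller scale. It was at 94.7, 91.5 and 93.1 TPM at day 0, at 188, 193 and 202 TPM on day 1, at 139, 136 and 146 TPM on day 2, and at 149, 158 and 135 TPM on day 3. Day 0 is lowest and day 1 highest in every library, and days 2 and 3 overlap. It rose by 1.13 ± 0.06 (adjusted p = 1.46e-11) and then fell by 0.58 ± 0.06 (adjusted p = 1.89e-07).

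*Peg3*, a zinc finger protein gene, was at 17.4, 19.3 and 15.7 TPM at day 0, at 35.8, 37.4 and 33.9 TPM on day 1, at 29.5, 35.8 and 31.9 TPM on day 2, and at 31.0, 33.0 and 38.3 TPM on day 3. The later days overlap and lie above day 0. It rose by 1.10 ± 0.09 to day 1 (adjusted p = 3.69e-09). The fall to day 2 of 0.25 ± 0.08 (fell by 0.25 on the log2 scale, adjusted p = 0.0134) was lost with upper-quartile normalization, with limma on log2(TPM + 1), and without either day 1 replicate 2 or day 2 replicate 1 (adjusted p between 0.0615 and 0.216 in these, and between 0.00257 and 0.216 over all 13 alternatives).

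*Plagl1*, which codes for the zinc finger protein Zac1, made the largest step down of the members. It was at 8.78, 7.61 and 8.77 TPM at day 0 and at 0.66, 0.50 and 0.49 TPM on day 1, from 309 to 332 reads and 18 to 27 reads per library. It then stood at 1.04, 1.37 and 1.13 TPM on day 2 and at 1.49, 1.72 and 1.78 TPM on day 3. The libraries of each day lie apart from those of every other day. It fell by 3.85 ± 0.16 to day 1 (14.4-fold lower, adjusted p = 2.75e-13) and rose by 0.99 ± 0.20 to day 2 (adjusted p = 0.000362). The further rise of 0.45 ± 0.17 to day 3 (adjusted p = 0.04995) was called in only 2 of 13 alternatives. On the log2(TPM + 1) scale, which understates the change of low genes, limma gave a fall of 2.60 to day 1 (fell by 2.60, adjusted p = 1.58e-10).

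*Igf2*, the growth factor itself, was at 6.16, 2.22 and 2.14 TPM at day 0 and at 3.01, 1.93 and 1.67 TPM on day 1. It then stood at 4.80, 3.51 and 5.77 TPM on day 2 and at 11.9, 4.89 and 10.2 TPM on day 3. The day 0 and day 3 ranges overlap, and replicate 1 is the highest library on both days. Day 3 was called above day 0 by 1.29 ± 0.45 (adjusted p = 0.0282). The call was lost in a fit of the 2 days alone and without any of day 0 replicate 2, day 0 replicate 3, day 3 replicate 1 or day 3 replicate 3 (log2 fold change 1.02 to 1.30, adjusted p 0.0692 to 0.102, and from 0.0008 over all 13 alternatives), and the difference was 1.94 (adjusted p = 0.000902) without day 0 replicate 1.

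That library, day 0 replicate 1, also had the highest summed level of 20 fibroblast markers at day 0 (47.5 TPM, against 29.4 TPM in the lowest). The sum was 41.6 to 44.7 TPM on day 1, within the day 0 range, 93.8 to 170 TPM on day 2, and 276 to 478 TPM on day 3. Of 17 of these genes that could be tested, 9 were higher and 4 lower on day 3 than on day 0. Of all genes tested, 35.0% were higher and 35.9% lower. Most of the day 3 sum came from *Tagln* (249 TPM) and *Acta2* (53.9 TPM), genes of the contractile cytoskeleton. Of the defining markers, *Col3a1*, *Postn*, *Lum* and *Prrx1* were below 1 TPM in all libraries of days 1, 2 and 3, and *Col1a1*, *Col1a2* and *Thy1* were not. At day 0 only *Lum* and *Prrx1* among them were below 1 TPM in all libraries. In all day 3 libraries 11 of the 20 markers were above 1 TPM, against 7 in those of day 0. The part of other cells in the *Igf2* and *H19* levels was not tested.

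*Impact* (chr18:12954690-12992950), whose product restrains activation of the kinase Gcn2, was the steadiest member. Its libraries lay between 172 and 237 TPM over the whole time course, with the widest range (177 to 237 TPM) on day 2. The rise of 0.24 ± 0.08 to day 1 (adjusted p = 0.0138) was lost with limma and without either day 0 replicate 1 or day 0 replicate 2 (adjusted p 0.0559 to 0.0960, and 0.00181 to 0.0960 over all 13 alternatives), and day 3 differed from day 0 by 0.02 ± 0.08 (adjusted p = 0.817).

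The genes with the pattern most like each member were sought by Pearson correlation of log2(CPM + 1) over the 12 time-course libraries, which share their days and preparation. For *H19* they were *Kmt5a* (r = 0.965), *Slc16a3* (0.962) and *Oaz2* (0.960). *Plagl1* was most like *B4galnt4* (0.992), *Pros1* (0.991) and *Kit* (0.990), and *Grb10* most like *Elavl3* (0.995). The highest value for *Impact* was 0.858, with *Srsf2*.

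**Figure D2:**
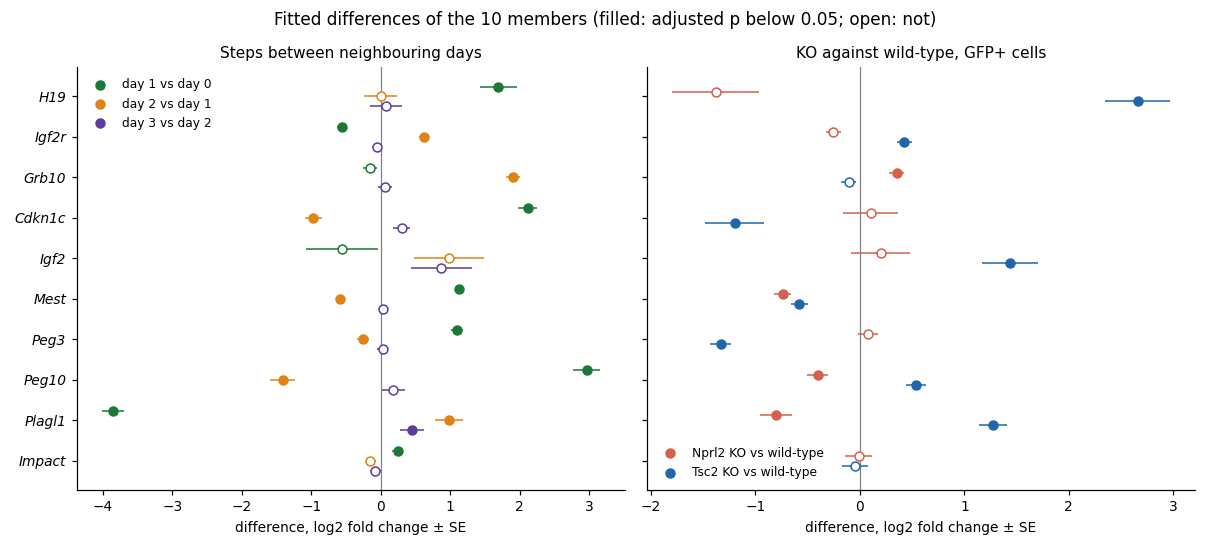
Fitted log2 fold changes ± SE (x axis) of the 10 members (y axis) for the steps between neighbouring days (left) and for each KO against wild-type in GFP+ cells (right). Filled points passed an adjusted p of 0.05. On the right, *Peg10* and *Plagl1* are called in both KOs on opposite sides of 0, and *Mest* is called below 0 in both.

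The GFP+ libraries ask what loss of each mTORC1 regulator does to cells that still express the reporter. In *Tsc2* KO cells, 8 of the 10 members differed from wild-type, 5 higher (*H19*, *Igf2*, *Igf2r*, *Peg10*, *Plagl1*) and 3 lower (*Cdkn1c*, *Mest*, *Peg3*). Of all genes tested, 29.1% were called, 14.9% higher and 14.2% lower. The median absolute log2 fold change was 0.89 over the members, which were chosen with earlier results known, and 0.26 over all genes. In *Nprl2* KO cells, 4 members differed, *Grb10* higher and *Mest*, *Peg10* and *Plagl1* lower, against 6.43% of all genes (2.78% higher, 3.66% lower), with a median absolute change of 0.30 against 0.17. The comparisons share their wild-type libraries. Between the KOs, 8 members differed, 5 higher in *Tsc2* KO (*H19*, *Igf2*, *Igf2r*, *Peg10*, *Plagl1*) and 3 lower (*Grb10*, *Cdkn1c*, *Peg3*), against 34.2% of all genes (17.5% higher, 16.6% lower).

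**Figure D3:**
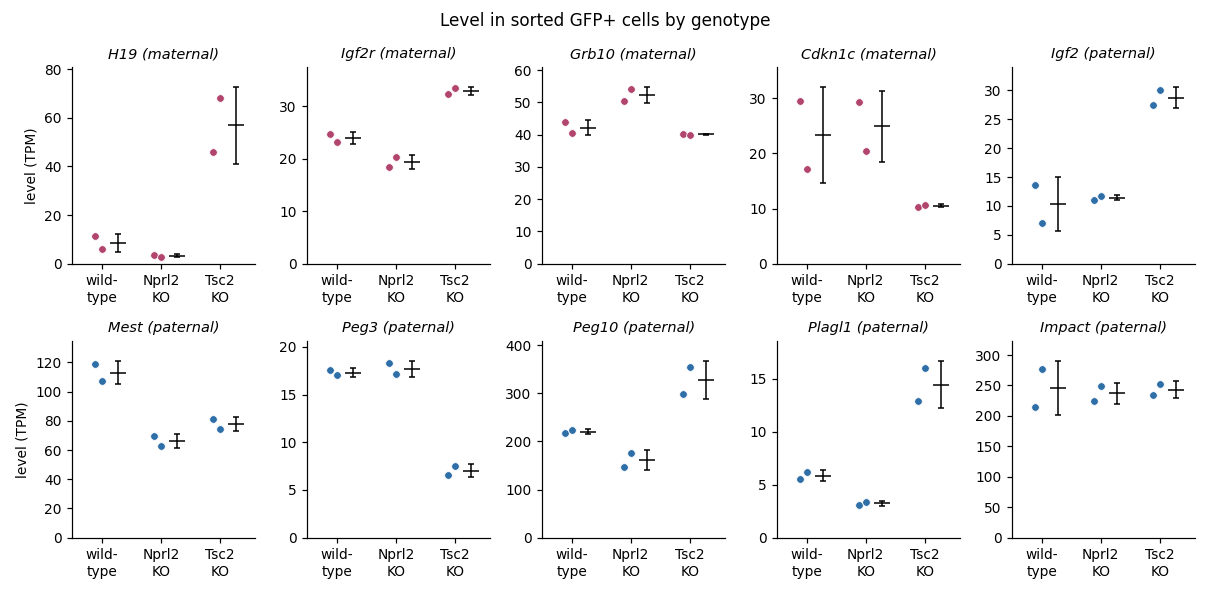
Level in TPM (y axis) of the 10 members in GFP+ wild-type, *Nprl2* KO and *Tsc2* KO cells (x axis). Points are libraries, 2 per genotype, in red for maternally and blue for paternally expressed genes, and the black bar is the mean ± SD. *H19* lies at 45.8 and 68.0 TPM in *Tsc2* KO and at or below 11.2 TPM in the other libraries.

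*H19* showed the largest difference of the members. It was at 11.2 and 5.97 TPM in wild-type, at 3.72 and 2.91 TPM in *Nprl2* KO and at 45.8 and 68.0 TPM in *Tsc2* KO, or 60 to 146, 46 to 48 and 672 to 1082 reads per library. The 3 genotypes do not overlap, although the wild-type libraries differ from each other by more than the lower of them differs from *Nprl2* KO. *H19* was higher in *Tsc2* KO than in wild-type by 2.66 ± 0.31 (6.32-fold, adjusted p = 0.00214), and this was called in all 11 alternatives (2.32 to 3.19). *Tsc2* KO lay above *Nprl2* KO by 4.04 ± 0.35 (adjusted p = 0.000499). The difference between *Nprl2* KO and wild-type of -1.38 ± 0.42 did not pass (adjusted p = 0.134) and was called in 4 of 11 alternatives, with adjusted p between 3.27e-11 and 0.430.

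*Igf2*, the neighbour of *H19*, was at 13.6 and 6.98 TPM in wild-type, at 11.1 and 11.7 TPM in *Nprl2* KO and at 27.4 and 30.0 TPM in *Tsc2* KO. The *Tsc2* KO libraries lie above all others, and the *Nprl2* KO libraries fall between the wild-type ones. The difference of *Tsc2* KO from wild-type was 1.44 ± 0.27 (2.71-fold, adjusted p = 0.0119), and its adjusted p rose to 0.0597, the highest of 11 alternatives, where replicate number entered as a block. *Igf2* of *Tsc2* KO was above that of *Nprl2* KO by 1.24 ± 0.26 (adjusted p = 0.0152), which was lost without any of the Nprl2 KO replicates 1 and 2 and Tsc2 KO replicate 2, and with the block (1.19 to 1.26, adjusted p 0.0565 to 0.0990, and from 5.83e-23 over all 11 alternatives). kallisto divided the *Igf2* reads over 3 transcripts with separate starts. In *Tsc2* KO, NM_001122737.1 held 40.7%, NM_010514.3 39.1% and NM_001122736.1 20.2% of the *Igf2* TPM, and on day 3 of the time course NM_001122736.1 held 75.6%. These shares are estimates from few reads.

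In the GFP+ libraries the fibroblast markers had a summed level of 424 and 311 TPM in wild-type, 330 and 359 TPM in *Nprl2* KO, and 387 and 106 TPM in *Tsc2* KO. Of the 20 markers, 17 were above 1 TPM in all wild-type libraries, 17 in all *Nprl2* KO libraries and 15 in all *Tsc2* KO libraries. At day 0 of the time course this number was 7, with a sum of 29.4 to 47.5 TPM. The *Tsc2* KO library with the lowest sum, replicate 2, had the highest *H19* and *Igf2*. Of the 17 markers tested, 0 were called in either KO by edgeR's quasi-likelihood test, 0 at an unadjusted p below 0.05 and 0 by DESeq2. Of all genes, 29.1% were called in *Tsc2* KO and 6.43% in *Nprl2* KO. The median log2 fold change of the markers was -0.65 in *Tsc2* KO and -0.11 in *Nprl2* KO. With 2 libraries per genotype, and sums so far apart within *Tsc2* KO, these tests cannot show that marker levels were equal. Within wild-type, replicate 1 was higher in fibroblast markers, *H19*, *Igf2* and *Cdkn1c*. *Lum* was below 1 TPM in all groups, and the other defining markers were not. Without wild-type replicate 1, *Tsc2* KO exceeded wild-type by 2.01 for *Igf2* (adjusted p = 4.15e-06).

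**Figure D4:**
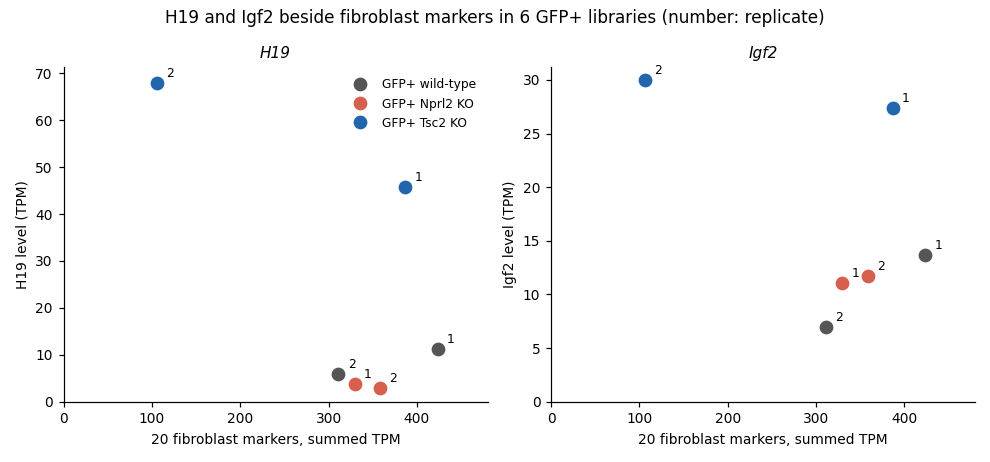
Summed TPM of 20 fibroblast markers (x axis) against the level of *H19* (left) and *Igf2* (right) in TPM (y axis) in the 6 GFP+ libraries, coloured by genotype and numbered by replicate. The *Tsc2* KO libraries are the highest for both genes at a marker sum of 387 and of 106 TPM.

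The extraembryonic endoderm markers had a summed level of 417 to 439 TPM in *Tsc2* KO and 264 to 271 TPM in wild-type. Of 11 tested, *Hnf4a* and *Sparc* were higher and *Lamb1* was lower in *Tsc2* KO, with 14.9% of all genes higher and 14.2% lower. Most of the difference in the sum was *Sparc*, a matrix protein gene, at 365 and 194 TPM on average, whereas the defining markers *Sox7*, *Sox17* and *Foxa2* were below 1 TPM in every GFP+ library. The other defining markers were detected, *Gata4* at 1.14 TPM on average in wild-type and 1.72 TPM in *Tsc2* KO and *Gata6* at 0.761 and 1.05 TPM, and neither difference passed (adjusted p = 0.314 and 0.609). The trophoblast and mesoderm sums stayed at or below 62.8 and 7.83 TPM in GFP+ cells. The trophoblast sum was 40.9 and 62.8 TPM in wild-type and lower, at 32.5 and 39.7 TPM, in *Tsc2* KO. Of 5 trophoblast markers tested, *Krt7* was higher in *Tsc2* KO, 0 were lower and 4 were not called. The cell state differed too: the summed level of 4 formative epiblast markers was 386 to 462 TPM in wild-type, 532 to 624 TPM in *Nprl2* KO and 110 to 115 TPM in *Tsc2* KO, and that of the 10 stem cell markers was 6851 to 7542, 6269 to 7138 and 8616 to 8950 TPM. The part of such cells or states in the members' levels was not tested.

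*Igf2r* was at 24.8 and 23.1 TPM in wild-type, 18.5 and 20.3 TPM in *Nprl2* KO, and 32.4 and 33.5 TPM in *Tsc2* KO, with no overlap. The difference of *Tsc2* KO from wild-type was 0.43 ± 0.07 (adjusted p = 0.000842), and that of *Nprl2* KO was -0.26 ± 0.07 (adjusted p = 0.0567, called in 2 of 11 alternatives). *Igf2* and its clearing receptor were both above wild-type in *Tsc2* KO.

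*Cdkn1c* was at 29.5 and 17.2 TPM in wild-type, 29.4 and 20.4 TPM in *Nprl2* KO and 10.4 and 10.7 TPM in *Tsc2* KO. Wild-type and *Nprl2* KO overlap and differed by 0.10 ± 0.26 (adjusted p = 0.869), and both lie above *Tsc2* KO. *Cdkn1c* fell by 1.20 ± 0.28 in *Tsc2* KO (adjusted p = 0.0185). The call was lost without either Tsc2 KO replicate (adjusted p = 0.0753 and 0.0852, against 1.58e-13 to 0.0852 over all 11 alternatives), and the fall was 0.77 (fell by 0.77 on the log2 scale, adjusted p = 0.0344) without wild-type replicate 1.

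*Grb10*, whose protein is a substrate of mTORC1, was at 43.9 and 40.6 TPM in wild-type, 50.5 and 54.0 TPM in *Nprl2* KO, and 40.2 and 40.0 TPM in *Tsc2* KO. The *Nprl2* KO libraries are the highest, and those of *Tsc2* KO lie just below wild-type. The difference of *Nprl2* KO from wild-type was 0.35 ± 0.07 (adjusted p = 0.0119), lost with limma and without either wild-type replicate 2 or Nprl2 KO replicate 2 (0.30 to 0.31, adjusted p 0.0747 to 0.0886, and from 0.000899 over all 11 alternatives). *Tsc2* KO differed from wild-type by -0.11 ± 0.07 (adjusted p = 0.289) and from *Nprl2* KO by -0.46 ± 0.07 (adjusted p = 0.000336).

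*Mest* was at 119 and 107 TPM in wild-type, 69.4 and 63.0 TPM in *Nprl2* KO and 81.0 and 74.4 TPM in *Tsc2* KO. Both KOs lie below wild-type. *Mest* fell by 0.74 ± 0.08 in *Nprl2* KO (adjusted p = 0.000346) and by 0.58 ± 0.08 in *Tsc2* KO (adjusted p = 0.000284), and the KOs differed by 0.16 ± 0.08 (adjusted p = 0.167). The *Mest* calls held in every alternative run for each KO against wild-type.

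*Peg3* was at 17.6 and 17.0 TPM in wild-type, 18.3 and 17.1 TPM in *Nprl2* KO and 6.54 and 7.53 TPM in *Tsc2* KO. It fell by 1.33 ± 0.10 in *Tsc2* KO (2.52-fold lower, adjusted p = 2.98e-06), where both libraries lie below all others, and differed by 0.08 ± 0.09 in *Nprl2* KO (adjusted p = 0.679). *Usp29*, a paternally expressed neighbour, starts next to *Peg3* on the other strand.

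*Peg10* was at 217 and 224 TPM in wild-type, 146 and 176 TPM in *Nprl2* KO and 299 and 355 TPM in *Tsc2* KO, with no overlap. *Tsc2* KO was higher by 0.54 ± 0.10 (adjusted p = 0.00273). *Nprl2* KO was lower, with a log2 fold change of -0.41 ± 0.10 (adjusted p = 0.0384), which was lost with limma and without wild-type replicate 1, wild-type replicate 2 or Nprl2 KO replicate 1 (-0.46 to -0.30, adjusted p 0.0526 to 0.144, and from 7.07e-09 over all 11 alternatives). kallisto split the *Peg10* reads evenly over 2 transcripts of the same length, so only their sum is used.

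*Plagl1* had the same order of genotypes as *Peg10*. It was at 5.51 and 6.22 TPM in wild-type, 3.07 and 3.39 TPM in *Nprl2* KO and 12.9 and 16.0 TPM in *Tsc2* KO. *Tsc2* KO was higher by 1.27 ± 0.14 (2.42-fold, adjusted p = 3.86e-05), and *Nprl2* KO lower, with a log2 fold change of -0.80 ± 0.16 (adjusted p = 0.00996). The latter was lost without wild-type replicate 2, Nprl2 KO replicate 1 or Nprl2 KO replicate 2 (-0.87 to -0.70, adjusted p 0.0534 to 0.0609, and from 1.71e-05 over all 11 alternatives). *Zfp42*, the reporter's gene, had this order too, at 591 TPM on average in wild-type, 430 TPM in *Nprl2* KO and 868 TPM in *Tsc2* KO.

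*Impact* lay between 214 and 277 TPM in all 6 GFP+ libraries, and the widest spread was within wild-type. It differed from wild-type by -0.01 ± 0.13 in *Nprl2* KO (adjusted p = 0.981) and by -0.05 ± 0.13 in *Tsc2* KO (adjusted p = 0.817).

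The other genes of the IGF and insulin system were a list of 17 ligands, receptors, substrates and binding proteins. Of 11 tested there, 8 were higher and 1 lower on day 3 than on day 0, with a median log2 fold change of 0.84 against -0.01 over all genes tested, of which 35.0% were higher and 35.9% lower. The largest rises were of the binding protein genes *Igfbp5* (0.527 to 12.1 TPM, 4.43 ± 0.29, adjusted p = 2.54e-08) and *Igfbp3* (7.60 to 52.2 TPM, 2.69 ± 0.11, adjusted p = 7.03e-14) and of the receptor substrate genes *Irs1* (0.564 to 5.12 TPM, 3.06 ± 0.28, adjusted p = 2.93e-07) and *Irs2* (7.11 to 32.8 TPM, 2.12 ± 0.11, adjusted p = 3.29e-12). Of 12 tested in GFP+ cells, 3 were higher and 2 lower in *Tsc2* KO, with a median of -0.04, against 0.005 over all genes, of which 14.9% were higher and 14.2% lower. In *Nprl2* KO edgeR's quasi-likelihood test called 0 of the 12, against 6.43% of all genes, 4 had an unadjusted p below 0.05 and DESeq2 called 1. In *Tsc2* KO the binding protein gene *Igfbp2* rose from 243 to 470 TPM (0.91 ± 0.07, adjusted p = 3.14e-06), and *Igf1r*, the receptor that passes on the Igf2 signal, from 4.91 to 7.11 TPM (0.50 ± 0.12, adjusted p = 0.00734).

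**Figure D5:**
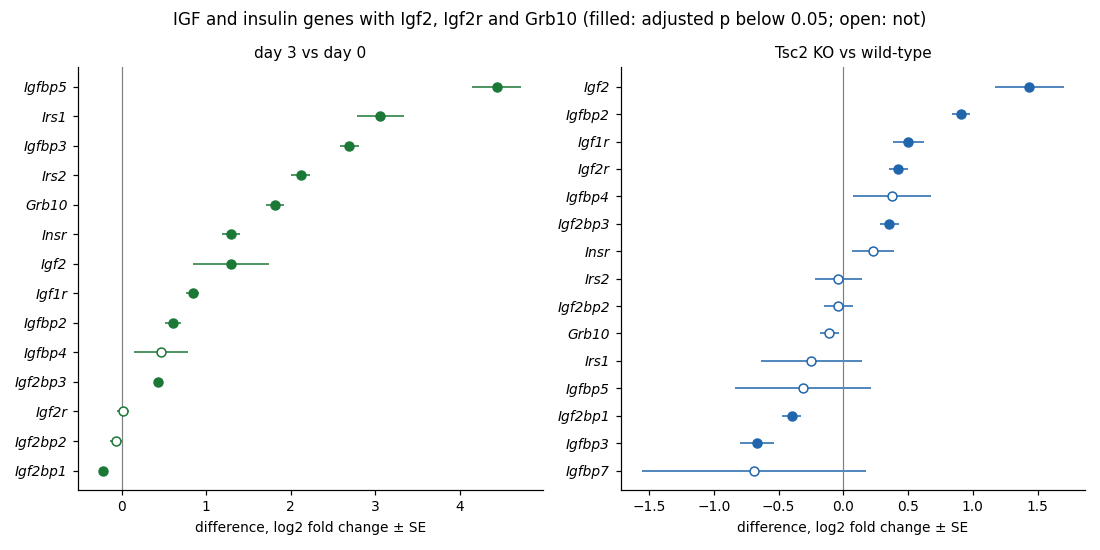
Fitted log2 fold changes ± SE (x axis) of the tested IGF and insulin genes with *Igf2*, *Igf2r* and *Grb10* (y axis), for day 3 against day 0 (left) and *Tsc2* KO against wild-type (right), each sorted by size. Filled points passed an adjusted p of 0.05. *Grb10* lies among the rises on the left (1.81) and near 0 on the right (-0.11).

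Relatives of the members within their protein families, numbered 6, of which 5 were higher and 1 was lower on day 3 than on day 0 (median log2 fold change 0.52), with 70.9% of all genes called. *Grb7* rose with *Grb10* over the time course (18.5 to 71.2 TPM, 1.85 ± 0.13, adjusted p = 4.34e-09), as did *Grb14* (1.43 ± 0.24, adjusted p = 3.48e-05). *Grb7* was also higher in *Nprl2* KO (0.69 ± 0.13, adjusted p = 0.00733) and lower in *Tsc2* KO (-0.62 ± 0.13, adjusted p = 0.00463). *Cdkn1a*, which codes for the kinase inhibitor p21, fell by 0.91 ± 0.17 from day 0 to day 3 (adjusted p = 0.000432), while *Cdkn1c* rose. *Plag1*, the relative of *Plagl1*, rose by 0.77 ± 0.16 (adjusted p = 0.000246).

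Of 18 other paternally expressed imprinted genes tested in the time course, 8 were higher and 5 lower on day 3, and of 16 maternally expressed ones 7 were higher and 8 lower, with medians of 0.01 and -0.06 against -0.01 over all genes tested, of which 70.9% were called. The paternally expressed genes *Magel2* (5.05 ± 0.25, adjusted p = 1.26e-12), *Nnat* (3.98 ± 0.14, adjusted p = 7.84e-15) and *Ndn* (2.28 ± 0.13, adjusted p = 6.06e-12) rose most, with *Nap1l5*. In *Tsc2* KO, 3 of 18 paternally expressed genes were higher and 6 lower, and of 14 maternally expressed ones 2 were higher and 3 lower, with medians of -0.12 and 0.11 and with 29.1% of all genes called. In *Nprl2* KO, *Snrpn* was higher and *Kcnq1ot1* lower among the 18, with 2.78% of all genes higher and 3.66% lower. Of the 14, edgeR's quasi-likelihood test called 0, against 6.43% of all genes, 3 had an unadjusted p below 0.05 and DESeq2 called 1.

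Of 17 factors that keep, write or remove DNA methylation, 9 were higher and 3 lower on day 1 than on day 0 (median 0.18, with 30.1% of all genes higher and 30.8% lower). From day 1 to day 2, 2 were higher and 13 lower, with 32.5% of all genes higher and 29.6% lower. On day 3, 3 were higher and 12 lower than at day 0 (median -0.79, with 35.0% of all genes higher and 35.9% lower). *Zfp57* went from 589 TPM at day 0 to 243, 60.0 and 51.8 TPM on days 1, 2 and 3, a fall of 3.58 ± 0.09 on the log2 scale (adjusted p = 3.85e-16). *Dnmt3l* fell by 5.44 ± 0.26 (adjusted p = 3.19e-08), *Tet2* by 4.37 ± 0.18 (adjusted p = 4.12e-10) and *Dppa3*, low throughout at 3.17 TPM on day 0, by 3.86 ± 0.60 (adjusted p = 1.25e-05). In *Tsc2* KO, 6 of the 17 were lower and *Zfp57* was higher (0.78 ± 0.14, adjusted p = 0.00803), with 14.9% of all genes higher and 14.2% lower. In *Nprl2* KO 2 were higher and 2 lower, with 2.78% of all genes higher and 3.66% lower. *Dppa3* was at 50.6 TPM on average in wild-type, 109 TPM in *Nprl2* KO (1.10 ± 0.19, adjusted p = 0.00710) and 11.7 TPM in *Tsc2* KO (-2.16 ± 0.23, adjusted p = 9.40e-05), and *Dnmt3b* took the same order, at 338, 447 and 80.0 TPM. Methylation was not measured in these libraries.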

How the data were processed

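RNA-seq was analysed for 12 time-course libraries (days 0, 1, 2 and 3, with 3 libraries each) and 6 GFP+ libraries (3 genotypes, with 2 libraries each). The authors estimated transcript abundance with kallisto (0.42.1 in the submitters' processing notes, which also name mm10 and DESeq2) and deposited, per RefSeq transcript, estimated counts and TPM, unnormalized between libraries. Library preparation is described for the GFP+ libraries only, as stranded mRNA, and the strand setting of kallisto is not given in the sources used here. The deposited log2 fold changes and p-values of the authors' own KO comparisons were not used.

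Of 34079 transcripts, 33713 were named through RefSeq GRCm38.p6 and 192 through GENCODE vM21, and 174 were left out. Rows without a gene held 1.65% to 3.57% of counts and stayed out of all totals used in tests. Estimated counts were summed per gene, rounded and tested with edgeR 4.0.16 (R 4.3.3; TMM, filterByExpr, robust quasi-likelihood fits, Benjamini-Hochberg adjustment), with each experiment in a single fit without a replicate block. Alternatives were DESeq2 1.42.0, limma 3.58.1 on log2(TPM + 1), upper-quartile factors, no filter or a minimum of 10 counts per library, a block for the replicate number, a fit of the 2 compared groups alone, and the omission of each library in turn. The tests were checked on simulated counts. No library repeated another.

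The members and lists were chosen with earlier results of these data known. All members are named, and of each list the called genes with the 4 largest absolute changes may be named. Motifs and sequences are from RefSeq GRCm38.p6 tables, in which 6 members had a window before a start. Feeder and other cell types were checked by marker lists.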

Additional observations from a re-analysis of the deposited data

How the results depend on the processing

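Of 70 member results (10 genes in 7 comparisons), 37 kept direction and call under all alternatives run, 19 changed call and 14 changed direction, the latter all for differences not called in the main analysis. The number of members called from day 2 to day 3 was 0 with DESeq2, with limma, with upper-quartile factors, unfiltered and with the 2 days alone, and 0 to 1 without a library. For *Nprl2* KO against wild-type it was 4 in the main analysis, 2 with limma, 6 unfiltered, 5 with DESeq2, with the replicate block and with the 2 groups alone, and 2 to 4 without a library, and the cause was not tested. Differences that changed direction when a library was left out ranged, as log2 fold changes, as follows. From day 0 to day 1, *Igf2* ranged from -0.85 to 0.0923. From day 1 to day 2, *H19* ranged from -0.19 to 0.13, and was -0.0205 with DESeq2 and -0.0107 without the filter. From day 2 to day 3 the ranges were -0.16 to 0.24 for *H19*, -0.0809 to 0.0169 for *Igf2r*, -0.0148 to 0.11 for *Mest*, -0.0439 to 0.11 for *Peg3* and -0.16 to 0.0406 for *Impact*. From day 0 to day 3 they were -0.0622 to 0.064 for *Igf2r* and -0.0357 to 0.10 for *Impact*. In *Nprl2* KO against wild-type they were -0.18 to 0.77 for *Igf2* (called only without wild-type replicate 1, adjusted p = 0.0161), -0.21 to 0.53 for *Cdkn1c* and -0.21 to 0.20 for *Impact*. *Impact* ranged from -0.24 to 0.17 in *Tsc2* KO against wild-type and from -0.11 to 0.0388 between the KOs, where limma gave 0.0396. Leaving out a library of a GFP+ group leaves 1, which is assumed to vary like the other groups.

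The replicate numbers are shared by the groups. Correlations of same-numbered deviations ran from -0.157 to 0.191 in the time course. In GFP+ cells they were all positive, from 0.136 to 0.233, and with 2 libraries per group both replicates give the same value. The numbers were not taken as pairs in the main fit, and variation shared by replicate number was not tested. Over all genes, the block raised calls from 3996 to 5255 in *Tsc2* KO and from 4692 to 5846 between the KOs. With the replicate block, 8 members were called from day 1 to day 2, where *Igf2* joined (1.02, adjusted p = 0.00985). From day 2 to day 3, *Igf2* was called (0.81, adjusted p = 0.0299) and *Plagl1* was not (adjusted p = 0.0652). In *Nprl2* KO, *Igf2r* was called (-0.26, adjusted p = 0.0123), and between the KOs *Mest* was (0.16, adjusted p = 0.0487). Over all genes, calls in *Nprl2* KO went from 883 to 2072 with the block, to 1667 without the filter, and to between 339 and 548 without a library. In *Tsc2* KO they went from 3996 to 2225 without Tsc2 KO replicate 2 and to 2661 without wild-type replicate 1, and between the KOs from 4692 to 2974 without Tsc2 KO replicate 2. From day 2 to day 3 they went from 4525 to 2968 without day 2 replicate 2. limma on TPM moved the median of all genes by 0.107 from day 1 to day 2, where 63.8% of calls were higher, against 52.4% in the main analysis, and between the KOs 61.7% were higher, against 51.3%. The depth limits *H19*, *Igf2* and *Plagl1*, whose lowest libraries hold 17, 44 and 18 reads.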
